A study of Mus musculus with 11 samples.

Results

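The 10 genes described here, *Bcl2*, *Bcl2l1*, *Mcl1*, *Bcl2l10*, *Bax*, *Bak1*, *Bok*, *Bid*, *Bad* and *Bcl2l11*, belong to the BCL2 family, whose proteins set whether a cell enters mitochondrial apoptosis. They were picked by name and found through their Ensembl identifiers among the 54146 genes in the expression table of each embryo, where each matched 1 row. The tables came from single-embryo RNA-seq of 11 C57BL/6 mouse embryos at the 8-cell stage, collected at E2.5 from crosses between *Prdm10*Δ/+ mice. The 5 mutant embryos (*Prdm10*Δ/Δ, labelled KO) lacked exon 5 of *Prdm10* on both alleles. The 6 control embryos (labelled WT/HET) were *Prdm10*+/+ or *Prdm10*Δ/+, and the labels do not divide these. Embryos were assigned to a group by detection of exon 5 in their own cDNA, so the assignment rests on the same amplified RNA. Control replicates 4 to 6 and mutant replicates 4 and 5 formed batch 1, whose cDNA went through 16 cycles of PCR before library construction. Replicates 1 to 3 of each genotype formed batch 2, with 13 cycles. The stage was chosen by the study because it lies before mutant embryos look abnormal, and apoptosis was among the later defects. The values therefore address which death and survival transcripts an 8-cell embryo holds, and whether any already differed in mutants.

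BCL2 family proteins fall into 3 classes. Pro-survival members (BCL2, BCL-XL from *Bcl2l1*, MCL1, and the protein of *Bcl2l10*) hold the effector proteins in check. Effectors (BAX and BAK, and the related protein BOK) form pores in the outer mitochondrial membrane, which release cytochrome c and lead to caspase activation. BH3-only proteins (BID, BAD and BIM, the last encoded by *Bcl2l11*) carry stress signals to both by means of a short helix, the BH3 domain, that fits a groove on the pro-survival proteins. In the early embryo *Mcl1* is known as an essential survival gene, since embryos without it die around implantation.

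The BH3 helix is what the classes share, so its coding stretch is shown for each member in which it was found. In the longest CCDS coding sequence of each gene (GENCODE vM21, GRCm38), codons were searched for leucine, any 3 residues, glycine, serine or alanine, and then aspartate, on the coding strand only. The pattern occurred once in 9 of the 10 members and not in *Bcl2l10*. It is a loose pattern, held by 34.4% of 20320 mouse coding sequences, so a match marks letters and not a site. Each line gives 30 bases of the mRNA sense strand, 5′ to 3′, with the 18 bases that encode the pattern in capitals.
Bcl2: ctgaccCTCCGCCGGGCTGGGGATgacttc
Bcl2l1: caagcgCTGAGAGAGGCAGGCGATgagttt
Mcl1: gagaccCTGCGGCGCGTGGGCGACggcgtg
Bax: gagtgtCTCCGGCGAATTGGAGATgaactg
Bak1: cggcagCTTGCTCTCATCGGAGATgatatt
Bok: acagtgCTGCTGCGCTTGGGAGATgagctg
Bid: agacatCTCGCCCAAATAGGCGATgagatg
Bad: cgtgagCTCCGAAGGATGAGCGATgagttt
Bcl2l11: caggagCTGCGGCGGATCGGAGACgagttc
The fifth codon of the pattern encodes glycine in 8 of these stretches and serine in *Bad*. Across the 36 pairs, 12 to 20 of the 30 bases were identical (median 16), so the members are not near-copies here. All of them are exonic coding sequence. In GRCm38 the stretch of *Bcl2* lies at chr1:106712578-106712607 (minus strand), that of *Bcl2l1* at chr2:152829700-152829729 (minus strand) and that of *Mcl1* at chr3:95659430-95659459 (plus strand). Among effectors, the *Bax* stretch lies at chr7:45466000-45466029 (minus strand) and that of *Bak1* at chr17:27022534-27022563 (minus strand). The *Bok* stretch is split over 2 exons between chr1:93686651-93689167 (plus strand). The BH3-only stretches lie at chr6:120897292-120897321 (*Bid*, minus strand), chr19:6950786-6950815 (*Bad*, plus strand) and chr2:128147144-128147173 (*Bcl2l11*, plus strand).

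Library depth, as the summed RSEM expected count, ranged from 3534735 to 8265840 per embryo, and counting error is only a part of the spread because the reads carry no molecular identifiers. The labelled genotype was checked through *Prdm10* itself, which stood at 11.1 to 24.8 TPM (a level per transcript length, scaled to one total in every library) in controls and 4.88 to 8.16 TPM in mutants, without overlap. RSEM also assigned it a longer effective length in all 5 mutants (4348 to 5051 bases, against 2565 to 3357 in controls), which lowers TPM, and its count did not pass the test (log2 -0.66 ± 0.26, SE; DESeq2 adjusted p = 0.215). Of 8 markers of the 8-cell embryo, 7 were at 1 TPM or more in every library, and *Cdx2* reached at most 1.3 TPM. These markers were not level between the genotypes. Of the 7 tested, 4 were higher and 1 lower in mutants at an unadjusted p under 0.05 (71.4%, beside 11.9% of all genes tested), and *Klf5* was called as higher (log2 0.84 ± 0.14, SE; DESeq2 adjusted p = 1.1e-06). Their part in the results that follow was not tested. Of 5 cumulus cell markers, *Has2*, *Ptx3* and *Foxl2* had no read in any embryo, and the 5 together summed to at most 0.30 TPM. The summed TPM of 5 oviduct epithelium markers was 0.29 to 1.02 in batch 1 and 1.59 to 32.4 in batch 2, and that of 5 blood cell markers was 1.12 to 5.26 and 2.13 to 33.4. *Ovgp1* alone gave 1.45 to 30.1 TPM of the oviduct sums in batch 2, and the blood marker *Hbb-bt* had no read in any embryo. Each library was 1 embryo, and the labels do not say which embryos shared a litter. In whole embryos, fewer cells holding a transcript and less of it per cell cannot be told apart. TPM and normalised counts are relative to each library, so total RNA per embryo cannot be read from them.

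Of the pro-survival genes, *Mcl1* was by far the most abundant at the 8-cell stage. *Mcl1* (ENSMUSG00000038612.16, chr3:95658788-95663176) ranged from 41.9 TPM through a median of 63.7 TPM to 95 TPM in the 6 controls. In mutant replicates 1 to 5 it stood at 73.1, 56.4, 61.2, 48.0 and 66.5 TPM. In TPM, all 5 mutants lay inside the control range. In normalised counts *Mcl1* ran from 738 through 958 to 1344 in controls and was at 1204, 983, 1026, 679 and 974.98 in mutant replicates 1 to 5. Mutant replicate 4 was here below every control, and in TPM it was below the 3 controls of its own batch (52.0 to 95 TPM). *Bcl2l1* (ENSMUSG00000007659.18, chr2:152780668-152831728), the gene for BCL-XL, had 2.42 TPM in the lowest control, a median of 8.90 TPM and 16.7 TPM in the highest. Its level was 10.1, 7.80, 8.22, 17.4 and 18.6 TPM in mutant replicates 1 to 5. The 2 mutants of batch 1 lay above all controls and the 3 of batch 2 lay among them. *Bcl2l10* (ENSMUSG00000032191.5, chr9:75347758-75351632), known in mouse also as Diva or Boo and expressed in oocytes, was low. It ranged from 0.44 through 2.38 to 4.36 TPM in controls and was at 3.88, 1.66, 0.85, 1.90 and 1.44 TPM in mutant replicates 1 to 5, resting on only 126 reads over all 11 embryos.

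*Bcl2* itself, the founding member (ENSMUSG00000057329.7, chr1:106538178-106714274), was barely detected. It had 0 reads in the 6 controls together, which allows up to 0.0866 CPM (reads scaled by the library total, not by length) taking 3 reads as the limit, or 0.106 CPM as the exact Poisson 95% upper bound. The 5 mutants held 1 read, in replicate 3, or 0.0298 CPM (exact Poisson 95% interval 0.000755 to 0.166 CPM). Those limits cover counting error only. *Mcl1* had 179 CPM in the same controls. No fold change is given for *Bcl2*.

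The effector class was carried by *Bax* and *Bok*. *Bax* (ENSMUSG00000003873.11, chr7:45461697-45466898) was the most abundant of the 10 genes, with 91.4 TPM in the lowest control, a median of 116 TPM and 184 TPM in the highest. It was above 89.97% of the 11633 genes with a control mean of at least 1 TPM. In mutant replicates 1 to 5 it stood at 109.7, 115, 132, 168 and 162 TPM, all within the control range. *Bok* (ENSMUSG00000026278.14, chr1:93685660-93695764), the effector-like member known to act without BAX and BAK, ranged from 14.4 through a median of 51.5 to 71.6 TPM in controls. Mutant replicates 1 to 5 held 40.3, 27.4, 33.9, 72.6 and 95.8 TPM. The low values were those of batch 2 and the highest were the batch 1 mutants, of which both exceeded every control. *Bak1* (ENSMUSG00000057789.13, chr17:27019810-27029009), which encodes the effector BAK, was as scarce as *Bcl2*. Its 6 controls had 0 reads, with the same upper limits as for *Bcl2*, and its only read was in mutant replicate 3.

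The BH3-only genes were led by *Bad*, whose protein binds BCL-XL and is inactivated by survival kinases. *Bad* (ENSMUSG00000024959.13, chr19:6941861-6951899) ranged from 34.7 through 42.6 to 58.3 TPM in controls. Mutant replicates 1 to 5 were at 42.4, 50.4, 54.4, 53.5 and 50.1 TPM. Over all 11 embryos its coefficient of variation was 16.3% in TPM and 16.2% in normalised counts, where that of *Bax* was 23.7% and 16.0%. *Bid* (ENSMUSG00000004446.12, chr6:120891930-120916853), which links caspase-8 to mitochondria, ranged from 8.61 through 13.0 to 24.2 TPM in controls and was at 11.6, 10.6, 2.08, 18.4 and 14.2 TPM in mutant replicates 1 to 5. Mutant replicate 3 lay below all other embryos. *Bcl2l11* (ENSMUSG00000027381.16, chr2:128126038-128162547), which encodes BIM, stood at 5.11, 7.90 and 9.78 TPM as the lowest, median and highest of the controls. Its mutant values of 21.1, 9.51, 1.41, 7.27 and 6.95 TPM in replicates 1 to 5 held both the highest and the lowest of all 11 embryos. The plot of the 10 genes by embryo sets these values side by side.

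**Figure D1:**
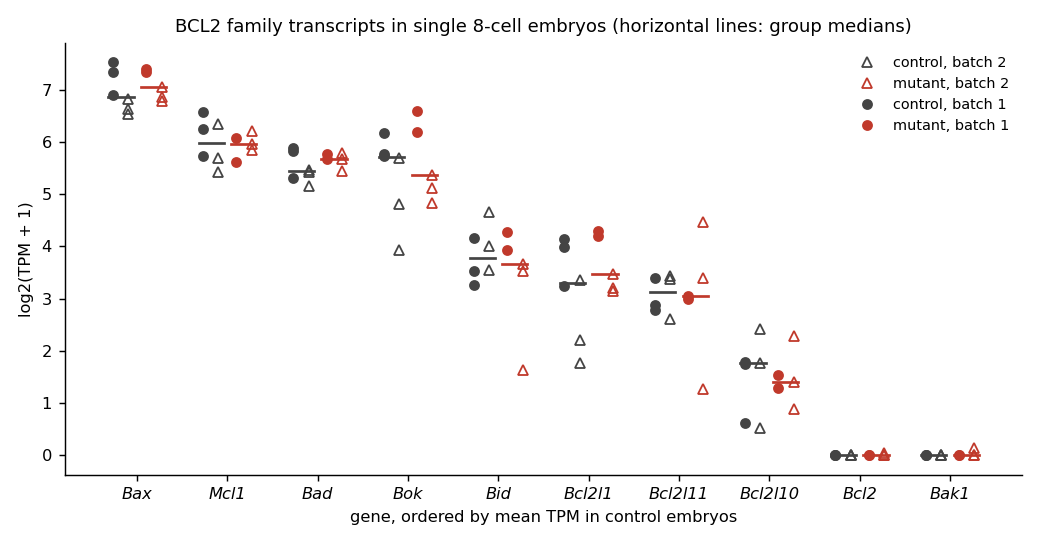
Level of each of the 10 BCL2 family genes in every embryo, as log2(TPM + 1), with genes ordered by control mean; filled circles are batch 1, open triangles batch 2, grey controls, red mutants, and horizontal lines group medians. *Bax* leads, *Bcl2* and *Bak1* lie at or near 0, and control and mutant points overlap for each of the other 8 genes.

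The order of the levels in controls was *Bax* (mean 128 ± 36.7 TPM, SD, n = 6), *Mcl1* (66.0 ± 20.8 TPM), *Bad* (45.5 ± 9.54 TPM), *Bok* (44.9 ± 20.7 TPM), *Bid* (14.4 ± 5.74 TPM), *Bcl2l1* (9.24 ± 5.77 TPM), *Bcl2l11* (7.69 ± 2.12 TPM) and *Bcl2l10* (2.09 ± 1.45 TPM). *Bax* exceeded *Mcl1* in 11 of 11 embryos, and *Bok* exceeded *Bid* in 11 of 11. *Bcl2l11* exceeded *Bcl2l10* in 11 of 11, with no overlap of their control ranges. The order of the remaining neighbours was not the same in every embryo and in part went with the batch. *Mcl1* was above *Bad* in 3 of 5 embryos of batch 1 and 6 of 6 of batch 2. *Bad* was above *Bok* in 1 of 5 and 5 of 6, with control means of 51.0 and 59.2 TPM in batch 1 and 40.0 and 30.6 TPM in batch 2. *Bcl2l1* was above *Bcl2l11* in 5 of 5 and 2 of 6, and *Bid* above *Bcl2l1* in 3 of 5 and 5 of 6. In controls *Bcl2l1* averaged 13.4 TPM in batch 1, above *Bid* (12.03 TPM) and *Bcl2l11* (7.27 TPM), and 5.11 TPM in batch 2, below both (16.7 and 8.11 TPM).

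Summed by class, control embryos held a median of 77.4 TPM of pro-survival transcripts (47.9 to 112), 167 TPM of effector transcripts (106 to 255) and 65.4 TPM of BH3-only transcripts (55.7 to 82.4). In mutant replicates 1 to 5 the pro-survival sum was 87.1, 65.8, 70.3, 67.3 and 86.6 TPM. The effector sum was 150.0, 142, 166, 240.2 and 258 TPM, with the highest of all embryos in a batch 1 mutant. The BH3-only sum was 75.1, 70.5, 57.9, 79.2 and 71.3 TPM, within the control range. One gene dominated each class. *Mcl1* gave 71.4% to 96.6% of the pro-survival TPM over the 11 embryos, *Bax* gave 62.9% to 86.4% of the effector TPM and *Bad* gave 54.2% to 94.0% of the BH3-only TPM. Control embryos held 2.01 ± 0.456 (SD, n = 6) times as much *Bax* as *Mcl1* TPM, and mutants 2.33 ± 0.735 (SD, n = 5) times, with a mutant range of 1.5 to 3.49. These sums of transcripts are descriptions with no test and are no measure of protein.

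**Figure D2:**
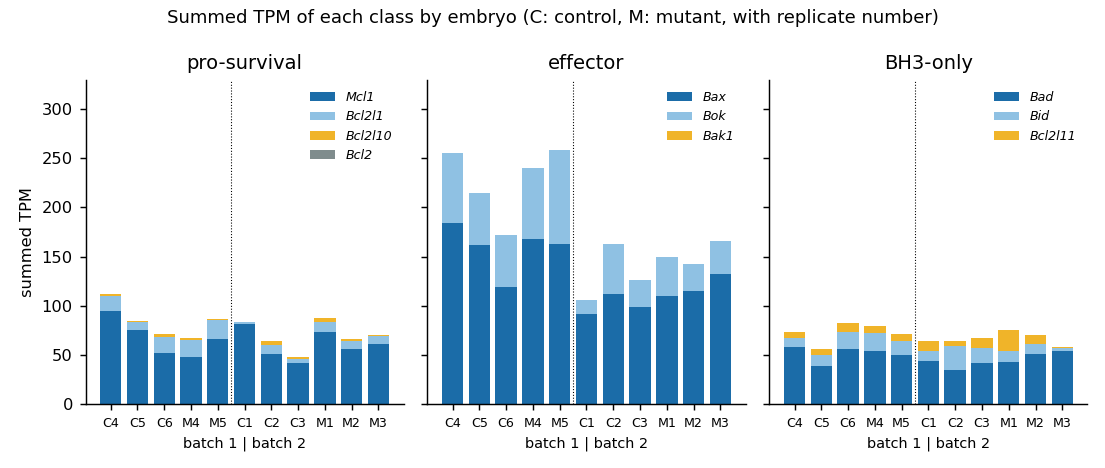
Summed TPM of the pro-survival, effector and BH3-only genes in each embryo, stacked by gene (linear axes from 0); C marks controls and M mutants with their replicate numbers, and the dotted line divides batch 1 from batch 2. Effector sums in batch 1 lie between 172 and 258 TPM and those in batch 2 between 106 and 166 TPM.

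No member passed the test of mutants against controls. In a DESeq2 fit over all genes with batch as a term, 8 of the 10 members had a mean normalised count above 10 and could be tested. Of these, 0 were called at an adjusted p under 0.05, where 1.45% of the 10448 genes tested were. At an unadjusted p under 0.05 the count was also 0 of 8, beside 11.9% of all genes, and the edgeR quasi-likelihood test called 0 of 8, beside 0.334% of all genes. *Bcl2l1* had the smallest p. Its normalised read count was 28.2, 96.1 and 183 as the lowest, median and highest control value, and 117, 95.3, 96.6, 172 and 190.4 in mutant replicates 1 to 5. It was 1.55-fold higher in mutants on the fitted scale (log2 0.64 ± 0.33, SE; 95% interval -0.01 to 1.28), with a DESeq2 adjusted p = 0.446 (0.0539 unadjusted). *Bok* followed, with control normalised counts of 83.7, 291 and 354 (lowest, median, highest) and mutant counts of 254, 163, 227, 428 and 570.3. Its log2 fold change was 0.41 ± 0.27 (SE; interval -0.11 to 0.94; DESeq2 adjusted p = 0.580).

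*Bax* was estimated more closely. Its controls held normalised counts of 360, 434 and 575 (lowest, median, highest) and its mutants 421, 474, 527, 565 and 561. The log2 fold change was 0.20 ± 0.15 (SE; interval -0.09 to 0.48; DESeq2 adjusted p = 0.647), so that the interval reached at most a 1.40-fold rise. For *Mcl1* the log2 fold change was -0.07 ± 0.21 (SE; interval -0.49 to 0.34; DESeq2 adjusted p = 0.946), and for *Bad* it was 0.19 ± 0.20 (SE; interval -0.20 to 0.58; DESeq2 adjusted p = 0.796). In these 3 genes the intervals left out a change of 1.5-fold or more in either direction. The other 3 were less well determined. *Bid* had a log2 fold change of -0.32 with an interval of -1.15 to 0.51, *Bcl2l11* of 0.28 with -0.48 to 1.03, and *Bcl2l10* of -0.13 with -1.55 to 1.28. A doubling or a halving of *Bcl2l10* thus lay inside its interval. The median log2 fold change of the 8 genes was 0.19, beside -0.0012 over all genes tested.

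**Figure D3:**
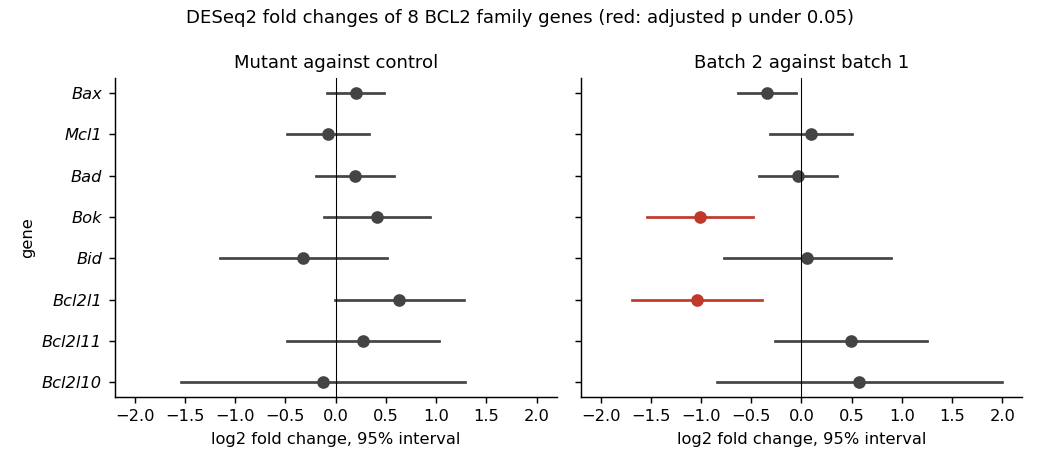
DESeq2 log2 fold changes (points) and 95% intervals (lines) of the 8 tested genes, for mutant against control on the left and batch 2 against batch 1 on the right; red marks an adjusted p under 0.05. All 8 intervals on the left cross 0. On the right those of *Bok*, *Bcl2l1* and *Bax* lie below 0, and *Bax* was not called.

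The clearest variation in the set was between the batches. *Bcl2l1* and *Bok* were lower in batch 2 at a DESeq2 adjusted p under 0.05, 2 of the 8 tested, beside 27.9% of all genes tested, so a share near that of the background. The *Bcl2l1* normalised count averaged 154 ± 42.9 (SD, n = 5) in batch 1 and 81.3 ± 36.0 (SD, n = 6) in batch 2. Its log2 difference, batch 2 minus batch 1, was -1.04 ± 0.33 (SE; DESeq2 adjusted p = 0.0104). *Bok* averaged 394 ± 109.7 (SD, n = 5) and 199 ± 70.8 (SD, n = 6), a log2 difference of -1.01 ± 0.27 (SE; DESeq2 adjusted p = 0.00182). The fitted ratio of batch 2 to batch 1 was 0.485 for *Bcl2l1* and 0.496 for *Bok*. The edgeR test called the same 2 genes, beside 22.7% of all genes. In *Bok*, all 5 embryos of batch 1 lay above all 6 of batch 2 on the TPM scale, as did 9.71% of all genes tested. *Bax* was at 540 ± 52.5 (SD, n = 5) in batch 1 and 433 ± 58.9 (SD, n = 6) in batch 2, with a log2 difference of -0.34 ± 0.15 (SE; DESeq2 adjusted p = 0.0705). On log2(TPM + 1) values the limma test called *Bax* too, with an adjusted p of 0.0141, beside 23.9% of all genes. Log2 differences of the other 5 genes lay between -0.03 (*Bad*) and 0.58 (*Bcl2l10*), with DESeq2 adjusted p from 0.390 up. Per the study's methods, the batches were isolated and processed apart. They differed in PCR cycles, in the oviduct and blood cell marker sums given above and in markers of the 8-cell embryo. Of the 7 such markers tested, 4 were called between the batches, each lower in batch 2, among them *Pou5f1* (log2 -1.53; DESeq2 adjusted p = 1.4e-05) and *Tfap2c* (log2 -0.94; DESeq2 adjusted p = 1.1e-07). Of 6 oocyte markers, *Oosp1* was called, as higher in batch 2 (log2 2.53; DESeq2 adjusted p = 1.3e-04). The part of these in the batch differences of the members was not tested.

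**Figure D4:**
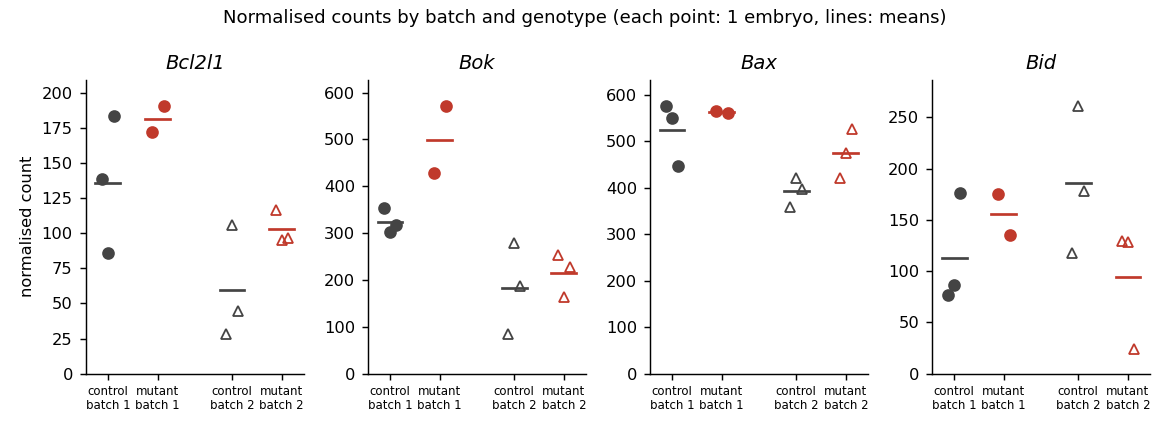
Normalised counts of *Bcl2l1*, *Bok*, *Bax* and *Bid* by batch and genotype (linear axes from 0, points are embryos, lines are means). *Bcl2l1* and *Bok* are lower in batch 2 in both genotypes, and the *Bid* means of mutants lie above controls in batch 1 (155 against 113) and below them in batch 2 (94.1 against 186).

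Within batches, 5 genes kept the sign of the pooled value in both. Mutant minus control log2 differences of *Bcl2l1* were 0.41 in batch 1 alone and 0.82 in batch 2 alone, those of *Bok* 0.63 and 0.24, those of *Bax* 0.11 and 0.27, and those of *Bad* 0.04 and 0.32. All 3 batch 2 mutants had a higher normalised *Bax* count than the 3 controls of that batch, as did 6.63% of all genes tested, while both batch 1 mutants lay inside the control range. The lowest of these mutants (421.1) was nearly level with the highest of these controls (420.5), and in TPM only 2 of the 3 mutants lay above all 3 controls. *Bid* turned from 0.46 in batch 1 to -0.97 in batch 2, *Bcl2l11* from -0.08 to 0.55 and *Mcl1* from -0.35 to 0.14. *Bcl2l10* was at -0.12 and -0.14. In a test of the batch by genotype interaction, 0 of the 8 members were called, beside 0.0382% of all genes by DESeq2, and 0 of 8 beside 0% by edgeR. At an unadjusted p under 0.05 the count was 0 of 8, beside 4.3% of all genes. The smallest p was that of *Bid* (log2 interaction -1.43 ± 0.80, SE; DESeq2 unadjusted p = 0.0745). Mutant replicate 3 held a normalised *Bid* count of 24.4, where the other 10 embryos held 77.1 to 261. This embryo also had the highest summed level of the oviduct epithelium markers, 32.4 TPM, whose part in the *Bid* value was not tested. Without this embryo the mutant minus control log2 difference of *Bid* was -0.02.

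RSEM divides reads among isoforms, and its effective length, the abundance-weighted length of the isoforms it assigned, showed where the assigned isoforms differed between embryos. For *Mcl1*, *Bcl2l10* and *Bcl2l1* it was nearly constant, at 3344, 1146 and 2340.4 to 2351.7 bases. *Bcl2l11* was the most variable, at 1252 to 2666 bases in controls and at 1519, 1953, 4540, 1633 and 1869 bases in mutant replicates 1, 2, 3, 4 and 5. Its 5 annotated coding transcripts span 672 to 5036 bases, and 4 of them hold the BH3 pattern printed above. Mutant replicate 3, with the longest value, had 33 reads of *Bcl2l11* and the lowest TPM of all embryos. *Bok* ranged from 1137 to 1394 bases, with no such outlying embryo. With an effective-length offset the *Bok* log2 fold change in mutants was 0.34 and that of *Bcl2l11* 0.19, neither called by DESeq2. *Bax* stayed between 764 and 798 bases.

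Some of the genes share sequence with a neighbour. The library protocol does not mark strand, so reads from overlapping genes on opposite strands cannot be told apart. In GENCODE vM21, 16.9% of the 31-base words of *Bid* also occur, on one or the other strand, in transcripts of *Bcl2l13*, a neighbour on the opposite strand with a control mean of 22.7 TPM. Likewise 18.4% of those of *Bad* occur in *Gpr137*, 20.4% of those of *Bak1* in *Ggnbp1* and, mostly within the overlapping gene model *Gm45808*, 11.1% of those of *Bax* in other genes. *Bcl2* shared 6.21%, largely with an antisense gene, and the remaining 5 genes shared less than 0.5%. The levels of *Bid*, *Bad* and *Bax* are uncertain by the share of reads that falls in these overlaps.

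The wider pathway gave a similar result. Of 64 further apoptosis genes in 5 lists, 47 had a control mean of at least 1 TPM. Also 47 were tested, though not all were the same genes. By DESeq2, 0 of the 47 tested genes were called, beside 1.45% of all genes, and 4 had an unadjusted p under 0.05, beside 11.9%. edgeR called 0 of them. The median log2 fold change of the 47 was 0.10, beside -0.0012 over all genes tested.

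Among the 16 other BCL2 family genes, 7 were tested and 0 called, with a median log2 fold change of 0.25. The mitophagy receptors *Bnip3l* (782 ± 149 TPM in controls and 831 ± 166 TPM in mutants; SD, n = 6 and 5) and *Bnip3* (646 ± 106 and 563 ± 108 TPM) stood far above all 10 members. *Bcl2l14*, which encodes the BCL2-related protein BCL-G, was at 138 ± 38.7 TPM in controls and 169 ± 45.0 TPM in mutants, a level like that of *Bax*. It had the smallest p of this list (log2 fold change 0.33 ± 0.19, SE; DESeq2 adjusted p = 0.508). *Hrk* and *Bcl2a1a* had no read in any embryo.

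Of 14 genes for mitochondrial death effectors, 13 were tested and 0 called, with a median log2 fold change of 0.04. *Mtch2*, which encodes the outer membrane protein that recruits BID, was at 412 ± 55.7 TPM in controls and 377 ± 41.3 TPM in mutants. The channel genes *Vdac1* (165 ± 28.3 and 193 ± 33.4 TPM) and *Vdac3* (149 ± 32.3 and 125 ± 21.4 TPM) were also abundant, and VDAC2, their sister channel, is known to bind BAK. *Diablo*, whose protein is released with cytochrome c and binds inhibitors of apoptosis, had the smallest p in the list, at 120 ± 23.7 TPM in controls and 96.7 ± 13.6 TPM in mutants (log2 fold change -0.30 ± 0.20, SE; DESeq2 adjusted p = 0.579).

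Of 12 caspase and death receptor genes, 8 were tested and 0 called (median log2 fold change 0.09). *Casp6*, an executioner caspase gene, was at 120 ± 24.1 TPM in controls and 123 ± 20.6 TPM in mutants (SD), and the death receptor gene *Tnfrsf10b* was at 19.9 TPM in control replicate 1, 2.81 to 3.97 TPM in the other 5 controls and 3.46 to 9.57 TPM in mutants. *Casp2*, the caspase gene known for its role in oocyte death, was at 1.3, 1.87 and 3.53 TPM as the lowest, median and highest control, and at 3.3, 2.58, 3.66, 2.77 and 7.36 TPM in mutant replicates 1 to 5. The groups overlapped. All 3 batch 2 mutants lay above the *Casp2* level of the 3 controls of that batch, as did 5.84% of all genes tested, whereas of the batch 1 mutants only replicate 5 did so. For *Casp2* the log2 difference was 0.94 ± 0.37 (SE; DESeq2 adjusted p = 0.226, 0.0112 unadjusted).

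Of 6 genes for inhibitors of apoptosis proteins and their antagonist *Xaf1*, 6 were tested and 0 called (median log2 fold change 0.10). *Birc5*, the gene for survivin, which also serves in cell division, led with 263 ± 54.0 TPM in controls and 230.4 ± 54.3 TPM in mutants. *Birc6* differed between the batches (log2 1.91, batch 2 minus batch 1; DESeq2 adjusted p = 6.8e-17), at 43.3, 33.0 and 50.4 TPM in the batch 1 controls and 115, 140.0 and 135 TPM in those of batch 2. Its mutants were at 46.4 and 56.5 TPM in batch 1 and at 93.8 to 131 TPM in batch 2. *Xiap*, which encodes a direct caspase inhibitor, stood at 31 ± 13.5 TPM in controls and 37.5 ± 13.6 TPM in mutants. *Xaf1* was at 2.54, 4.51 and 9.06 TPM as the lowest, median and highest control and at 9.74, 12.9, 10.9, 6.33 and 7.61 TPM in mutants. The groups overlapped as a whole, but within each batch every mutant lay above every control, as did 0.995% of all genes tested in both batches. Batch 2 controls ran from 3.25 to 9.06 TPM and batch 1 controls from 2.54 to 5.3 TPM. The log2 difference of *Xaf1* was 0.86 ± 0.33 (SE; DESeq2 adjusted p = 0.214, 0.0099 unadjusted).

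Of 16 regulators of BCL2 family proteins, 13 were tested and 0 called (median log2 fold change 0.16). The 14-3-3 genes *Ywhae* (299 ± 26.9 and 324 ± 66.2 TPM), *Ywhaz* (122 ± 29.4 and 100.3 ± 15.9 TPM) and *Ywhab* (109 ± 20.6 and 127 ± 31.7 TPM), whose proteins hold phosphorylated BAD in the cytosol, were the most abundant. *Foxo3*, a transcription factor known to activate *Bcl2l11*, had the smallest p of all 47 genes. It stood at 15.3, 26.1 and 43.5 TPM as the lowest, median and highest control and at 40.3, 40.4, 42.8, 23.4 and 28.3 TPM in mutants, and the groups overlapped. All 3 batch 2 mutants lay above the controls of their batch (15.3 to 32.5 TPM), as did 5.84% of all genes tested, whereas both batch 1 mutants lay inside the range of theirs (19.7 to 43.5 TPM). The log2 difference of *Foxo3* was 0.60 ± 0.20 (SE; DESeq2 adjusted p = 0.108, 0.0027 unadjusted). In batch 2 alone its DESeq2 adjusted p was 0.0497, beside 0.458% of all genes called there. *Usp9x*, the gene for a deubiquitinase that stabilises MCL1, had the fourth p under 0.05 and was chosen after its value was seen (log2 fold change -0.56 ± 0.24, SE; DESeq2 adjusted p = 0.283). In batch 2 its mutants (14.2 to 27.9 TPM) lay below the controls (33.6 to 43.3 TPM), as did 6.69% of all genes tested, and in batch 1 the mutants stood at 22.1 and 28.0 TPM beside controls of 25.1 to 38.8 TPM.

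**Figure D5:**
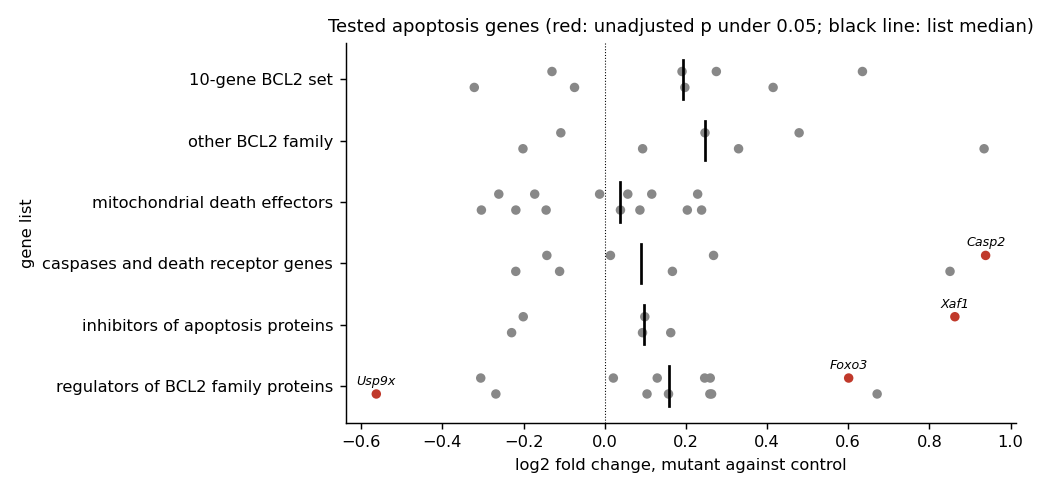
DESeq2 log2 fold change (mutant against control) of each tested gene in the 10-gene set and the 5 further lists; each point is a gene, red points have an unadjusted p under 0.05 and are named, and black lines are list medians. No gene passed the adjusted threshold, and the list medians lie between 0.04 and 0.25.

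The genes whose levels most resembled the 3 most abundant members were sought by Pearson's r of log2(TPM + 1) over the 11 embryos, after centring on each batch, among 5717 genes at a mean of at least 10 TPM. For *Bax* these were *Acads* (r = 0.99), *Nr1h2* (r = 0.96) and *Hdgf* (r = 0.95). For *Mcl1* they were *Ulk4* (r = 0.91), *Prpf38b* (r = 0.91) and *Nxf1* (r = 0.90). For *Bad* they were *Anapc13* (r = 0.89), *Zfp593* (r = 0.88) and *Gm26205* (r = 0.84). The points share libraries, depth and amplification, and these are the highest of all values computed, so they are a description only.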

How the data were processed

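The deposited table of each embryo holds the RSEM expected count, the TPM, the length and effective length of each gene, and a posterior SD of the count. Per the study's methods, the authors sequenced single-end Smart-seq2 libraries, mapped reads to GRCm38.p6 with STAR (version 2.6.0c) and estimated expected counts and TPM with RSEM on a GENCODE annotation. Their table of DESeq2 (version 1.22.2) comparisons (mean count, log2 fold change, p-values) was not used.

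Expected counts were rounded and fitted over all 54146 genes with DESeq2 (version 1.42.0; R version 4.3.3) with batch and group as terms, the Wald test, unshrunken fold changes and Benjamini-Hochberg adjustment. Calls required an adjusted p under 0.05 and a baseMean (mean normalised count) above 10. Intervals are 95%. The interaction was a separate fit. Alternatives used edgeR (version 4.0.16) and limma (version 3.58.1) on log2(TPM + 1). The DESeq2, edgeR and limma tests of mutants against controls were tried on simulated counts, limma there on CPM. The batch and interaction tests and the other alternatives were not. Levels are TPM, with no test. Positions and sequences came from GENCODE vM21.

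The members, the lists and the naming rule (each member; per list, called genes, the 3 most abundant and the smallest p) were chosen with earlier results of these data known. Replicates are separate embryos, numbered in accession order. One gene that the naming rule selected is not reported here.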

Additional observations from a re-analysis of the deposited data

Results flagged for a closer look

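Values of the 8 tested members were searched for a single outlying embryo, in TPM, normalised count and effective length in each genotype. *Bcl2* and *Bak1* were not searched, nor were groups with a range under 5% of the median. Of the 39 groups left, 2 were flagged, where chance flags about 1 in 20, or 1.9 or so. The effective length of *Bcl2l11* in mutant replicate 3 was 4540 bases, while the other 4 mutants held 1519 to 1953 bases. The effective length of *Bid* in control replicate 5 was 1870 bases, and the other 5 controls held 2205 to 2269 bases. Both values depend on how RSEM assigned 33 and 63.8 reads to isoforms. No TPM or normalised count of these 8 members was flagged.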

How the results depend on the processing

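Under 22 alternatives 0 of the members tested were called in mutants. Of all genes, from 22 of 10489 (limma on log2(TPM + 1)) to 265 of 10594 (without control replicate 2) were called. *Bcl2* and *Bak1* were too low to test, and *Bcl2l11* and *Bcl2l10* dropped out at a baseMean above 100. Over the alternatives of the interaction 0 members were also called, beside 0 of 10489 genes (edgeR) to 22 of 10373 (without control replicate 1). *Bcl2l1* and *Bok* were called between batches in all 14 alternatives run, with *Bax* added (3 genes) on log2(TPM + 1). The largest adjusted p there was 0.0490 for *Bcl2l1*, without control replicate 6, and 0.0216 for *Bok*, without mutant replicate 5. Lowest in mutants were 0.0973 for *Bcl2l1* and 0.152 for *Bok*, both without control replicate 2, which raised their log2 fold changes to 0.93 and 0.65. In batch 2 alone 1 of 48 pathway genes tested, *Foxo3*, was called, beside 0.458% of all genes, and 0 in the other alternatives. The cause was not tested.

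As no member was called in mutants, signs could turn only in uncalled genes. On limma values they did so for *Bcl2l11* (-0.056 with a pseudocount of 1, -0.12 with 0.1) and *Bcl2l10* (0.089 with 0.1). In batch 1 alone it was *Bid* (0.46) and *Bcl2l11* (-0.076), and in batch 2 alone *Mcl1* (0.14). Leaving out 1 embryo in turn gave log2 fold changes from -0.18 to 0.058 for *Mcl1*, -0.49 to 0.21 for *Bcl2l10*, -0.049 to 0.47 for *Bcl2l11* and -0.53 to -0.02 for *Bid*. *Bax*, *Bad*, *Bok* and *Bcl2l1* were above 0 in all 23 alternatives. Control TPM levels moved by less than 1 SD, except that over all 11 embryos *Bcl2* was at 0.00273 and *Bak1* at 0.00909 TPM. No paired analysis was possible because the labels do not say which embryos shared a litter. Of the 8 tested members *Bcl2l10* had the fewest reads, 126 over all embryos.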
